A study of Drosophila melanogaster with 3 samples.

Results

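The genes described here encode the subunits of Mediator and of TFIID in Drosophila melanogaster, and they were examined as targets of the chromatin protein CG9727. They were the protein-coding genes of the Ensembl BDGP6 annotation whose symbol is MED or Taf followed by a digit. The rule gave 40 genes of 13945 protein-coding genes, of which 25 were Mediator genes and 15 were Taf genes. Of these, Taf10b and Taf12L carry a paralogue or testis suffix and were kept. Binding was mapped by chromatin immunoprecipitation and sequencing (ChIP-seq) in whole embryos of both sexes aged 0 to 24 h, from a transgenic line that stably expresses CG9727 with enhanced GFP at its C-terminus. The fusion was precipitated with an antibody against GFP in 3 samples of 1 group, numbered as biological replicates. The labels do not say whether the replicates came from separate embryo collections, so their spread may be partly technical. Every value therefore describes the fusion protein averaged over all cells and all stages of embryogenesis, and no precipitate from embryos without the fusion was compared.

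TFIID is the general transcription factor that recognises core promoters. It consists of the TATA-binding protein and the TBP-associated factors (the Taf proteins), several of which pair through histone folds. Mediator is the large coactivator that carries signals from DNA-bound activators to RNA polymerase II, and it is divided into head, middle and tail modules around the scaffold subunit MED14, with a separable kinase module. Both complexes are needed in most dividing cells, and the early embryo inherits RNA for many of their subunits from the mother.

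A gene was called bound when its transcription start site (TSS), or any of its alternative TSSs, had a peak summit no farther than 500 bp away. Peaks came from the authors' thresholded list, made by irreproducible discovery rate (IDR), which held 7896 peaks. These were exactly the 7896 strongest peaks of the 30000 in the list called on the pooled replicates, so a peak had the same rank in both lists. Rank 1 is the peak of highest signal, the authors' own peak strength, and signal was compared only within a list.

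Summit sequences are given to show the kind of DNA on which the peaks were centred, namely AT-rich intergenic spacers between divergent genes in most cases. All are from the RefSeq copy of the dm6 assembly, and each is written on the strand named, 5′ to 3′, in lower case. Capitals mark matches to a searched motif on either strand. The first is the strongest peak of a member gene, at MED27 (chr3R:5654952-5655052, plus strand), with TATCG, the reverse complement of the BEAF-32 core CGATA. The stronger of the MED17 summits (chr3R:18188816-18188916, plus strand) holds the TATA box letters TATAAA. The weaker MED17 summit (chr3R:18189029-18189101, plus strand) lies beside the gene's own TSS and is the only member summit with the DRE, the binding motif of the promoter factor Dref. MED7 (chr3R:10761068-10761168, minus strand), Taf4 (chr3L:16113648-16113748, plus strand) and Taf6 (chr3L:19598881-19598981, plus strand) hold no searched motif, and they are given as the middle module example, the only bound Taf gene with no other TSS within 500 bp of its summit, and the weakest bound gene. The stretch across the TSSs of Taf10b and Taf10 (chr2L:2767844-2767917, plus strand) carried a peak just below the threshold. It spans the 45 bp between these TSSs and runs on into Taf10, where its TATAAA letters lie.
MED27: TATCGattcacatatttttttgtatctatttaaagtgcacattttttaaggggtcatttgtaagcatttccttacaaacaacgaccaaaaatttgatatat
MED17: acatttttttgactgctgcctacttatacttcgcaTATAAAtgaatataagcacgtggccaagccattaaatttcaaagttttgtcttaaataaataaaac
MED17, weaker summit: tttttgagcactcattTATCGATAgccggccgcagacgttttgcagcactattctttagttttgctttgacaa
MED7: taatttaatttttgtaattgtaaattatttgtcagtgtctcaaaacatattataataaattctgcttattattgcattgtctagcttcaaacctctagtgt
Taf4: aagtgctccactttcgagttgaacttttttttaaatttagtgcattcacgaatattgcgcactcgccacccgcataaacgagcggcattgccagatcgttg
Taf6: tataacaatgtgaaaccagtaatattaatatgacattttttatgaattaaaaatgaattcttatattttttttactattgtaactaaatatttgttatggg
Taf10b-Taf10: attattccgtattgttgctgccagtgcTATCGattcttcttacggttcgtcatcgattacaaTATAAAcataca

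In the IDR list, 17 of the 40 Mediator and Taf genes were bound (42.5%), against 3753 of 13905 other protein-coding genes (27.0%). Over all protein-coding genes tested, the share bound was also 27.0%. The same count was made in each replicate from its 7896 strongest peaks. There 18, 19 and 18 of the 40 genes were bound in replicates 1, 2 and 3, a mean of 45.8% ± 1.44 (SD, n = 3), against 27.0% ± 0.715 of other protein-coding genes. The background over all protein-coding genes was 27.8%, 26.4% and 27.0% in replicates 1, 2 and 3. The difference from other protein-coding genes was 17.2, 21.2 and 18.1 percentage points, a mean of 18.8 ± 2.07, with an exact 2-sided sign-flip permutation p of 0.25, the smallest that 3 replicates allow. That test covers only the spread between replicates, which share the same genes, and no test was made over genes. The difference from other protein-coding genes also depended on how a summit was assigned to genes. When each summit counted only for the nearest TSS of any gene, 9 of the 40 genes were bound (22.5%), against 20.4% of other protein-coding genes, a difference of 2.07 points.

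The share bound did not separate the complexes. In the IDR list 11 of 25 Mediator genes (44.0%) and 6 of 15 Taf genes (40.0%) were bound. Among Mediator genes 11, 12 and 11 were bound in replicates 1, 2 and 3, and among Taf genes 7 were bound in each replicate. These 7 Taf genes were not the same throughout. Replicate 1 included Taf10 and Taf10b, which share a single peak, and replicates 2 and 3 included Taf6 and Taf7 instead. The difference, Mediator minus Taf, was 4.0 points in the IDR list, but −2.67, 1.33 and −2.67 points in replicates 1, 2 and 3. Its mean of −1.33 ± 2.31 points (SD, n = 3) was smaller than its spread (exact 2-sided sign-flip permutation p = 0.5). With so few genes a single gene moves a share by several points, and the sign of the IDR difference turned when the suffixed genes were left out (−2.15 points).

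**Figure D1:**
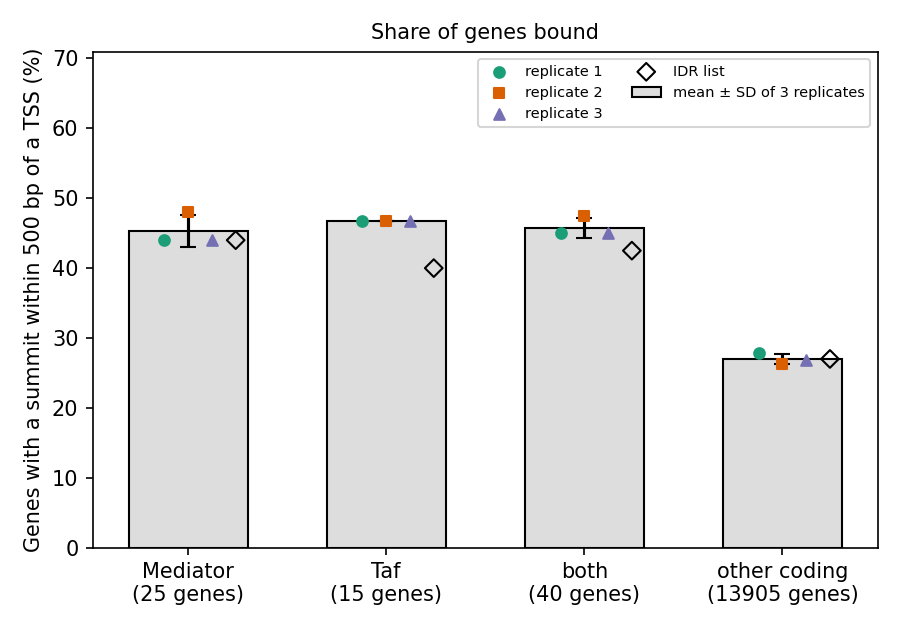
Share of genes with a summit within 500 bp of a TSS, in percent, for Mediator genes, Taf genes, both together and other protein-coding genes. Bars and error bars give the mean ± SD of 3 replicates, coloured points each replicate and open diamonds the IDR list. The Mediator and Taf bars lie at 45.3% and 46.7%, above the 27.0% of other coding genes.

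Among the bound Mediator genes, the head module was represented by MED17, MED8 and MED6. MED17 (FBgn0038578, chr3R:18189072-18191265), a large head subunit, had its strongest summit 206 bp upstream of the TSS, with a signal of 813.0 and rank 761. That peak ranked 1216, 452 and 818 in replicates 1, 2 and 3, well inside the strongest peaks in each. A weaker summit, rank 5159, lay 7 bp downstream of the TSS, and its match in replicate 2 had rank 8736, beyond the 7896 strongest. MED8 and MED6, core head subunits, had weaker peaks. The MED8 summit lay 299 bp upstream of the TSS at rank 5836, and the strongest summits within 500 bp had ranks 7378, 3399 and 5814 in replicates 1, 2 and 3. It was the bound gene whose summit lay farthest from a TSS. MED6 had summits 6 bp and 22 bp upstream of its nearest TSSs, both inside the gene, at ranks 6018 and 7493. In the replicates its strongest summits had ranks 7741, 6144 and 5713. Both genes were bound in every replicate, most weakly in replicate 1. There the closest matches of their IDR summits ranked 9401 at MED8 and 8346 at MED6, beyond the strongest 7896 peaks.

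Bound genes of the middle module were MED7, MED31, MED4 and MED19. MED7 (FBgn0051390, chr3R:10760071-10761032) had a summit 86 bp upstream with a signal of 640.2 and rank 1192, and ranks of 1106, 1090 and 1304 in replicates 1, 2 and 3. MED31 (FBgn0037262, chr3R:4641963-4643292) had a summit 131 bp upstream with rank 1807, and its matches ranked 2393, 1663 and 1832 in the replicates. In replicate 1 a separate summit at −295 bp was stronger, at rank 1606. MED4 (FBgn0035754, chr3L:7249529-7250527) had rank 2087, with 1893, 2482 and 2157 in the replicates. The peak of each of these 3 genes was well inside the strongest 7896 in every replicate. MED19 was the least stable of the bound Mediator genes. Its stronger summit lay 138 bp downstream of the TSS at rank 5291 and its weaker summit 124 bp upstream at rank 7663. Within 500 bp of its TSSs the strongest summits ranked 4579 in replicate 1, 3576 in replicate 2 and 9421 in replicate 3, so MED19 was not bound in replicate 3.

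The tail module, the part of Mediator that many activators contact, had the strongest member peak. MED27 (FBgn0037359, chr3R:5655139-5656336) had a summit 137 bp upstream with a signal of 1026.0 and rank 476, and ranks of 541, 398 and 515 in replicates 1, 2 and 3. MED30 (FBgn0035149, chr3L:652987-654089) had a summit 191 bp upstream with rank 1069, and ranks of 1486, 905 and 957 in the replicates. Both stood among the strongest 2000 peaks of every list. MED25, which binds activators in human cells, had summits 275 bp and 66 bp upstream at ranks 3642 and 3716, and the strongest summits within 500 bp ranked 3870, 3495 and 3187 in the replicates. These were not the same peak throughout, with offsets of −69, −69 and −357 bp. MED16 had a summit 23 bp upstream at rank 5763. The matching summit, within 100 bp, ranked 6801, 9415 and 4444 in replicates 1, 2 and 3, so in replicate 2 it lay beyond the strongest 7896 peaks. MED16 was called bound there through another summit, at −255 bp, of rank 7776.

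Of the Taf genes without a histone fold, Taf5 and Taf2 were bound. Taf5 (FBgn0010356, chr2R:10877312-10879673) encodes the WD40-repeat subunit. Its summit lay 171 bp upstream with a signal of 876.8 and rank 662, and it ranked 685, 518 and 915 in replicates 1, 2 and 3. Taf2 (FBgn0011836, chr3L:9884411-9888683), whose product contacts initiator DNA, had a summit 252 bp upstream with rank 879, and ranks of 1197, 711 and 842. Both genes were among the strongest 2000 peaks in every replicate. Of the genes for histone-fold subunits, Taf4 had the strongest peak. Taf4 (FBgn0010280, chr3L:16113212-16121651) had a summit 92 bp upstream of an internal TSS, inside the gene, with a signal of 754.7 and rank 888, and ranks of 915, 880 and 938, the tightest set of ranks among the members with strong peaks. Taf11 and Taf13, whose products pair with each other, had summits 183 bp and 160 bp upstream at ranks 3838 and 4992. Their ranks in replicates 1, 2 and 3 were 4117, 4190 and 3793 for Taf11, and 4809, 5332 and 6177 for Taf13. Taf6 (FBgn0010417, chr3L:19599088-19601382), the histone-fold partner of Taf9, was the weakest bound gene, with a signal of 167.1 and rank 7455. It ranked 9611 in replicate 1, where it was not bound, and 7715 and 6316 in replicates 2 and 3.

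**Figure D2:**
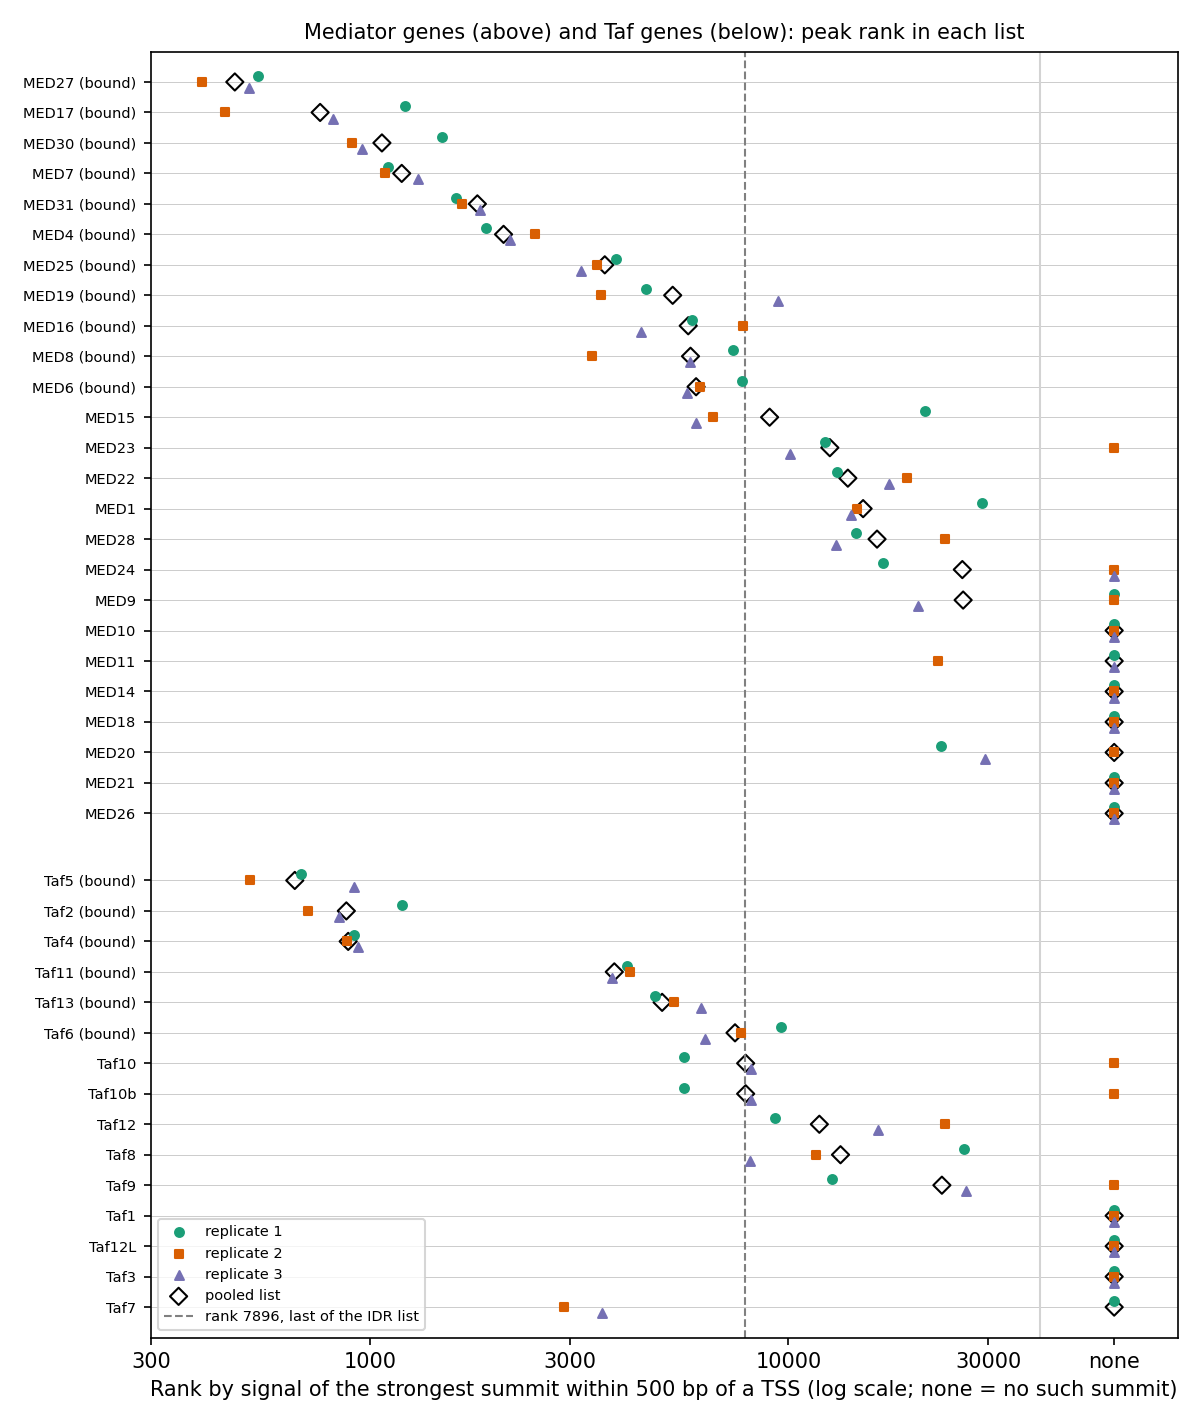
Rank of the strongest summit within 500 bp of a TSS for the 40 genes (log scale, Mediator above Taf), with coloured symbols for the 3 replicates, open diamonds for the pooled list and the dashed line at rank 7896, the end of the IDR list. The strong sites such as MED27, MED7, Taf5 and Taf4 have closely grouped ranks, whereas MED19, MED15, Taf6, Taf10 and Taf7 have symbols on both sides of the line or at none.

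Of the 17 bound genes, 15 (88.2%) were bound in all 3 replicates, against 2956 of the 3770 bound protein-coding genes (78.4%). The IDR procedure selects peaks for their repeated occurrence in these same samples, which favours such recovery. At 11 of the 17 genes the summit nearest to a TSS had a counterpart within 100 bp among the strongest 7896 peaks of every replicate. At the other 6 genes, MED17, MED19, MED16, MED8, MED6 and Taf6, a summit within 100 bp existed only at lower rank in 1 or more replicates. The largest such ranks were 9976 for MED19 in replicate 2 and 9611 for Taf6 in replicate 1. The share of other bound protein-coding genes with a summit recovered in this way is not given. As a group, the bound members had a median rank of 2087 for their strongest summit, against 3101 for the other bound protein-coding genes. The median was 2087 for Mediator genes and 2363 for Taf genes. A summit among the strongest 2000 peaks of every list was present at 5 Mediator and 3 Taf genes. The share of other genes that met this condition was not computed. MED31 met it in replicate 1 only through a separate summit, because the match of its IDR summit ranked 2393 there. With a similar cut on rank in the IDR list alone, 8 of the 17 bound members passed (47.1%). Of other bound protein-coding genes 35.2% passed that cut, and the difference was not tested.

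Nearly all member peaks lay upstream of the nearest TSS of the gene. The nearest summit was upstream of the TSS at 16 of 17 bound genes (94.1%), against 83.5% of other bound protein-coding genes, and the exception was MED17. The median offset was 137 bp upstream for the members, with quartiles at 171 and 86 bp upstream, against 121 bp upstream for other bound genes. For Mediator genes the median offset was −124 bp and for Taf genes −165.5 bp, where negative is upstream. The plot of summit positions shows the tightest placement at Taf4, with offsets of −95, −95 and −96 bp in replicates 1, 2 and 3. Other strong summits shifted more between replicates. The offsets in the same order were −137, −135 and −154 bp at MED27 and −171, −138 and −111 bp at Taf5. At MED17 they were −206, −184 and −257 bp. At MED6, MED8, MED16, MED19, MED25 and MED31 the strongest summit in 1 or more replicates was not the match of the strongest IDR summit.

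**Figure D3:**
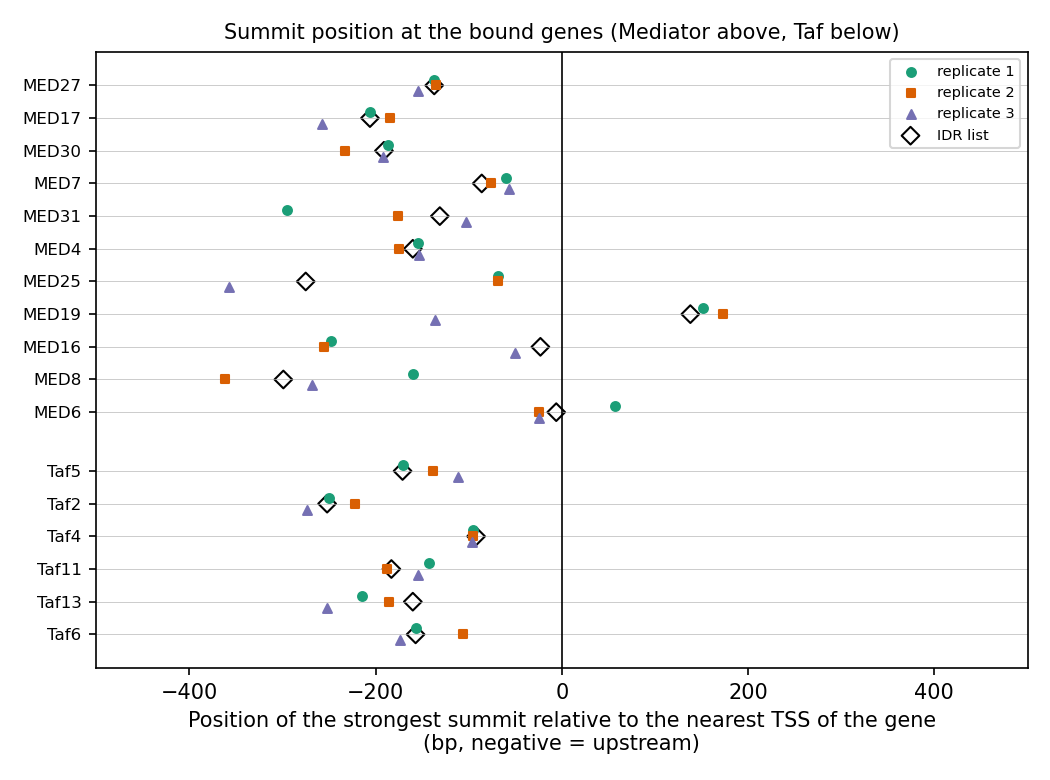
Position of the strongest summit relative to the nearest TSS of the gene, in bp with negative values upstream and the nearest of several TSSs used for each point, at the 17 bound genes (Mediator above Taf), with coloured symbols for the replicates and diamonds for the IDR list. Apart from MED19, every IDR summit shown lies upstream of the TSS, and Taf4 at −92 bp shows the tightest placement.

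Most member peaks also lay close to another gene. At 16 of the 17 bound genes (94.1%) a second protein-coding gene began within 1000 bp in the opposite, diverging orientation. Such a partner existed at 64.0% of other bound protein-coding genes. Of the 16 partners at members, 15 were bound by the same rule. A summit between TSSs less than 500 bp apart calls both genes bound, so such calls are not independent. Of the 21 IDR summits at bound members, 19 lay within 500 bp of another gene's TSS as well. Such a peak cannot be assigned to 1 gene of the pair. The shares of bound partners and of shared summits at other bound protein-coding genes are not given. Neither count is therefore shown to be particular to the members. At MED27 the summit lay nearly midway, 137 bp from MED27 and 141 bp from elm. At Taf6 it lay 157 bp from Taf6 and 176 bp from ash1, which encodes a Trithorax-group histone methyltransferase. MED7 was nearer to its summit than Cap-H2, a condensin II gene, at 86 bp and 192 bp. For 8 of the 17 bound genes every summit in the window was nearer to another gene's TSS, which held for 24.3% of other bound protein-coding genes. These were MED30, MED31, MED4, MED8, Taf2, Taf5, Taf11 and Taf13. The MED30 summit lay 83 bp from the TSS of Rev1, a translesion polymerase gene. The MED31 summit lay 6 bp inside CG9775. The Taf5 summit lay 130 bp from Pex6, a peroxisome biogenesis gene, and that of Taf2 169 bp from the calpain gene CalpB. At Taf11 the summit lay 44 bp upstream of und, and at Taf13 it lay 37 bp inside nesd. MED4 had no coding partner, and its summit lay 47 bp inside a non-coding antisense gene. At MED17 and MED25 the stronger summit was nearer to CG12321 and to the heparan sulphate sulfotransferase gene Hs6st, while the weaker summit was nearer to the Mediator gene. The remaining shared summits lay 165 bp from CG8929 at MED8, 236 bp from CG11170 at MED16, and 13 bp and 298 bp from Naa80, an actin acetyltransferase gene, at MED6. At MED19 the upstream summit lay 291 bp from CG7430.

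Taf4 was the bound Taf gene without a TSS of another gene within 500 bp of its summit. Its divergent neighbour Zn72D began 586 bp away and was not bound. The stronger MED19 summit, inside the gene, likewise had no other TSS within 500 bp.

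The spacing between the divergent TSSs was examined after the values were seen. Of members whose partner lay 100 to under 500 bp away, 13 of 16 were bound (81.2%), against 55.8% of other protein-coding genes at that spacing. Spacing is the smallest over all annotated TSSs of both genes. In replicates 1, 2 and 3 the member share at this spacing was 75%, 87.5% and 81.2%, a mean of 81.2% ± 6.25 (SD, n = 3), against 55.2% ± 1.74 of other protein-coding genes. The exceptions in the IDR list were MED22, MED9 and Taf7. Of members with a closer partner, under 100 bp, 2 of 10 were bound (20.0%), namely MED6 and Taf2, against 39.7% of other protein-coding genes. The replicate shares gave a mean of 26.7% ± 11.5 against 40.4% ± 2.26. The Taf2 summit, 252 bp upstream, lay outside the 79 bp between its TSS and the closest TSS of CalpB. At a spacing of 500 to 1000 bp, 1 of 5 members was bound (20.0%), against 34.2% of others. The replicate means for that class were 33.3% ± 11.5 and 34.4% ± 0.247. Of members with no partner within 1000 bp, 1 of 9 was bound (11.1%), against 15.2% of others. Of the 40 members, 31 had a divergent partner and 9 had none, whereas 8884 of 13905 other protein-coding genes had none. Among bound members 16 of 17 had one (94.1%), against 64.0% of the other bound protein-coding genes. Among unbound members 15 of 23 had one (65.2%), against 25.8% of the other unbound protein-coding genes. Spacing had a median of 278 bp at bound and 88 bp at unbound members with a partner, while other protein-coding genes had medians of 297 bp and 301 bp. These spacing classes hold few members and were chosen with the values in view, so they describe these genes and were not tested.

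**Figure D4:**
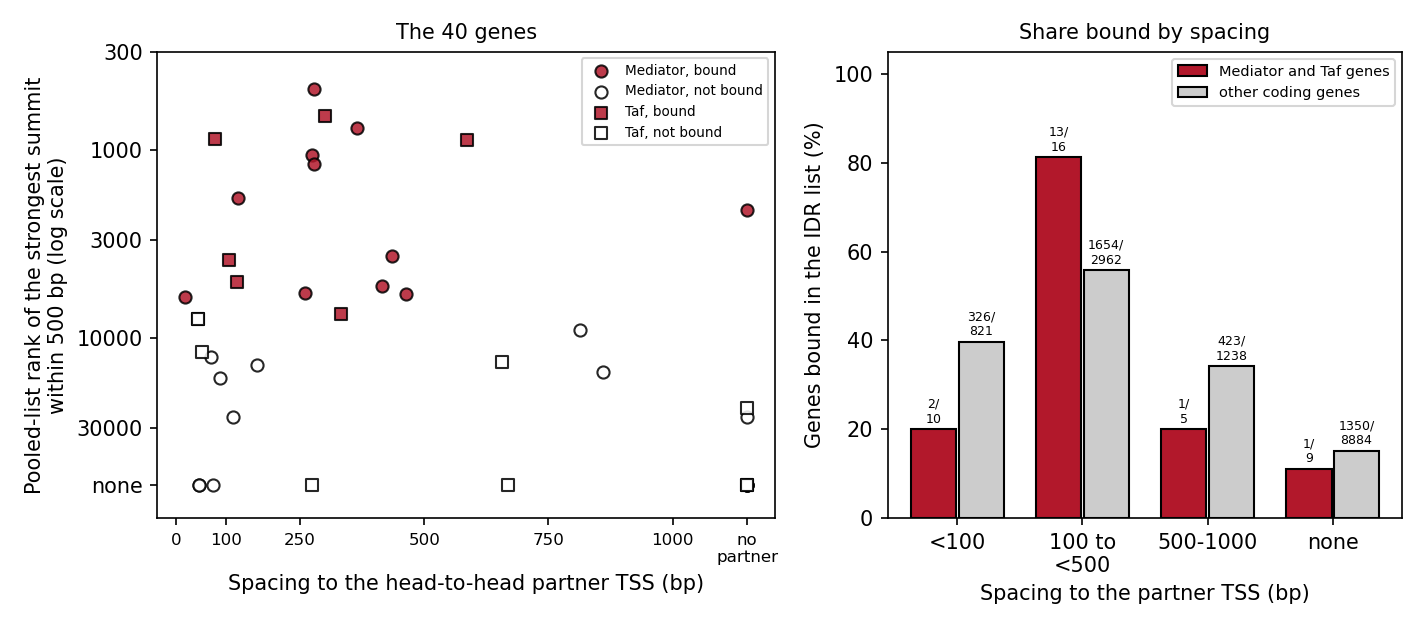
Left, rank of the strongest pooled summit (log scale, strong at the top) against the distance in bp to the divergent partner TSS for the 40 genes, filled when bound and open when not; several unbound genes overlap at none. Right, percent of genes bound by spacing class in bp, with bound and total genes above each bar; members reach 81.2% at 100 to under 500 bp and 20.0% below 100 bp, against 55.8% and 39.7% of other coding genes.

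The unbound genes fell into groups by how close they came to the threshold. At MED15, the tail subunit contacted by many activators, the nearest IDR summit lay 540 bp upstream, just outside the window, with rank 784. It was nearer to CG4297, at 273 bp. A separate, weaker summit 338 bp upstream ranked 9017 in the pooled list, and the summits there ranked 21151, 6594 and 6020 in replicates 1, 2 and 3, so MED15 was bound in replicates 2 and 3. Taf8 was the next outside the limit, with an IDR summit 681 bp upstream on the side of its partner Mvb12. Within 500 bp, Taf8 had a pooled summit of rank 13317.

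Taf10 and Taf10b encode paralogous histone-fold subunits and start 45 bp apart in opposite directions, so they shared every promoter summit. Their pooled summit had a signal of 158.2 and rank 7904, against the lowest IDR signal of 158.3 at rank 7896. The shared site ranked 5633 in replicate 1 and 8119 in replicate 3, and replicate 2 held no summit within 500 bp. Both genes were therefore bound in 1 replicate only and fell just below the threshold.

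Taf7 had the least even record. Its product binds Taf1 in TFIID. In replicate 2 a peak at its promoter (chr3R:7907257-7907706) ranked 2907, and in replicate 3 an overlapping peak (chr3R:7907280-7907775) ranked 3582. The gene has 2 annotated TSSs, and both summits lay between them, 149 bp downstream of the first in replicate 2 and 110 bp upstream of the second in replicate 3. In replicate 1 the nearest summit was 4004 bp away, and the nearest summit of the pooled list was 13399 bp away. Taf7 was thus among 44 protein-coding genes, of 3735 bound in 2 or 3 replicates, for which the pooled list had no summit within 500 bp. The reason was not tested.

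Relaxed lists held weaker summits at other unbound genes. The pooled relaxed list had a summit within 500 bp of 29 of the 40 members (72.5%), against a background of 50.1% of all protein-coding genes. By complex these were 18 Mediator genes (72.0%) and 11 Taf genes (73.3%). The 11 unbound genes with a relaxed summit but no call in a replicate were MED1, MED9, MED11, MED20, MED22, MED23, MED24, MED28, Taf8, Taf9 and Taf12. Pooled ranks ran from 11855 at Taf12 to 26142 at MED9, and MED11 and MED20 had no pooled summit in the window. MED20 starts 47 bp from Trf, which encodes a TBP-related factor, and neither was bound. No list held a summit within 500 bp of 8 genes: the scaffold gene MED14, MED10, MED18, MED21, MED26, and Taf1, Taf3 and Taf12L. Taf1 encodes the largest TFIID subunit, and its nearest IDR summit was 16188 bp away. At MED21, on arm 3L, the nearest IDR summit was 2205699 bp away, the farthest of any member. MED26 and Taf3 lie on chromosome 4, where 6.25% of protein-coding genes were bound. The 4 members on the X chromosome, MED18, MED22, Taf8 and Taf9, were unbound too, while 27.8% of the protein-coding genes there were bound. Taf12L, a testis paralogue of Taf12 also known as rye, had its nearest IDR summit 108704 bp away.

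Set beside the 27.0% of all protein-coding genes that were bound, the counts by module rest on few genes. By module, 3 of 7 head genes, 4 of 9 middle genes and 4 of 9 tail genes were bound, the last with ix, the gene of MED29, counted as unbound. Of the histone-fold Taf genes 4 of 10 were bound, and of the others 2 of 4. Genes outside the symbol rule were counted as well. In the kinase module skd was bound, at 416 bp and rank 2421, and kto, Cdk8 and CycC were not. Tbp, the TATA-binding protein gene, was not bound, its nearest IDR summit being 3652 bp away. Neither were the testis TAF genes nht, can, mia and sa, nor the TBP-related genes Trf and Trf2 in the IDR list. Among 17 other general transcription factor genes 9 were bound, and the same background of 27.0% applies to this count and to the next. They included the TFIIH gene Ssl1 at rank 5, a summit it shares with Chro. Of 15 genes for subunits of SAGA other than Taf proteins, several of which also serve in other complexes, 10 were bound in the IDR list and 10 in each replicate, with Gcn5, its histone acetyltransferase, at rank 481. SAGA is a coactivator that shares several Taf proteins with TFIID. TAF1B and TAF1C-like, of the RNA polymerase I factor, were both bound, at ranks 2719 and 2250.

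Motif content is given beside that at other promoters, with no test. Each motif was searched on both strands within 50 bp of the 21 member summits and of 3315 other IDR summits within 500 bp of a protein-coding TSS. The BEAF-32 core CGATA was present at 5 member summits (23.8%), against 20.8% of other promoter summits. It overlaps the DRE, TATCGATA, which was present at 1 (4.76%) against 3.92%. TATAAA was present at 6 (28.6%) against 21.4%, and GAGAG, the GAGA motif, at 2 (9.52%) against 10.3%. GGTCACAC, the core of Motif 1, and the E-box CAGCTG were not in these windows at any member summit, against 2.29% and 5.31% of others. Median GC content within 50 bp was 29.7% at member summits and 34.7% at other promoter summits, and among members it ran between 13.9% at Taf2 and 58.4% at MED19 and MED6. In promoters reaching 250 bp upstream to 50 bp downstream of a TSS, the DRE occurred at 4 of 17 bound and 6 of 23 unbound members, against 10.1% of other protein-coding genes. Motif 1 occurred at 4 bound and 8 unbound members, against 8.65%. The GAGA motif occurred at 2 bound and 6 unbound members, against 36.4%, and the E-box at 1 bound and 6 unbound members, against 22.3%. CGATA occurred at 11 bound and 12 unbound members, against 53.1%, and TATAAA at 8 bound and 14 unbound members, against 51.3%. These backgrounds join bound and unbound genes. At other bound protein-coding genes the shares were 16.9% for the DRE, 14.4% for Motif 1 and 41.9% for the GAGA motif. They were 30.5% for the E-box, 66.1% for CGATA and 56.1% for TATAAA. Each motif was less frequent at other unbound protein-coding genes, with 48.3% for CGATA and 7.6% for the DRE.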

How the data were processed

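Per the descriptions deposited with the files, the authors called a relaxed peak list for each of the 3 replicates against 1 control, a relaxed list on the pooled replicates, and an IDR list from these, on dm6. The sources used here do not give the aligner, the peak caller or the IDR threshold. Every peak was deposited with the authors' signal and a −log10 q-value. Read depth is unknown from these lists, so signal only ranked peaks within a list and has no counting error here.

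Summits were compared with 23998 TSSs of 18164 genes (Ensembl release 115). A gene was bound when a summit lay within 500 bp of any TSS. In each replicate the 7896 strongest peaks were used. Shares are means ± SD over the replicates, and differences were tested by exact 2-sided sign-flip permutation over them. Genes are not replicates and were not tested as such. A divergent partner was a protein-coding TSS within 1000 bp pointing away. The nearest-summit calculation was tested on simulated data.

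The members, gene lists and motifs were chosen with earlier results of these data known. Every member is reported, with replicate values for the 6 bound genes of highest signal, those not recovered in all replicates and those near the 500 bp limit; other values, the spacing classes and the genes around them were picked with their values known. Other settings tried were the window, list, TSS assignment, ranking and membership. Of the testis genes listed, rye is Taf12L itself. Data on the dm3 build were not used. Python 3.11.15, numpy 2.4.6 and pandas 2.3.3 were used.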

Additional observations from a re-analysis of the deposited data

How the results depend on the processing

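The excess of Mediator and Taf genes over other protein-coding genes kept its sign in every alternative run. It was 15.5 percentage points in the IDR list and fell to 2.07 points with the nearest TSS only; the mean over replicates was 18.8 points, with 17.7 to 19.6 when 1 replicate was left out. The share of other genes moved with the settings too, so each share below has its own background. The excess of all members over other genes was 18.4 points with a window of 200 bp and 19.4 with 1000 bp. It was 10.9 with the 3948 strongest IDR peaks, 10.1 with the TSS inside the peak interval and 22.5 in the pooled relaxed list. Its replicate mean was 12.8 with 3948 peaks per replicate and 20.0 with complete lists. The shares themselves moved with the settings, and are given for Mediator, Taf and both. They were 40.0%, 33.3% and 37.5% with a window of 200 bp, and 52.0%, 46.7% and 50% with 1000 bp. They were 28.0%, 26.7% and 27.5% with the 3948 strongest IDR peaks, and 28.0%, 13.3% and 22.5% with the nearest TSS only. With the TSS inside the peak interval they were 28.0%, 33.3% and 30.0%, and in the pooled relaxed list 72.0%, 73.3% and 72.5%. With the most upstream TSS only, Mediator and both together were at 40.0%. Without suffixed genes Taf was at 46.2% and both at 44.7%. With TAF1B and TAF1C-like, an alternative added after the data were seen, Taf was at 47.1% and both at 45.2%. Replicate means were 30.7%, 26.7% and 29.2% with 3948 peaks per replicate, and 69.3%, 71.1% and 70.0% with complete lists. Leaving out 1 replicate gave 44.0% to 46.0% for Mediator, 46.7% for Taf and 45.0% to 46.2% for both.

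The difference Mediator minus Taf had no stable sign. It was 4.0 points in the IDR list, 14.7 with the nearest TSS only, 6.67 with a window of 200 bp, 5.33 with 1000 bp and 1.33 with the 3948 strongest peaks. It was 0.0 with the most upstream TSS, −5.33 with the TSS inside the interval, −1.33 in the pooled list, −2.15 without suffixed genes and −3.06 with TAF1B and TAF1C-like. Its replicate mean was −1.33, but 4.0 with 3948 peaks per replicate, and −2.67 to −0.667 without 1 replicate. The number of bound genes recovered in all replicates was 11, and 17 with complete lists, 8 with a matching distance of 50 bp, 13 with 200 bp and 8 with 3948 peaks per replicate. Without 1 replicate it was 11 to 14. The causes of these moves were not tested. No paired analysis was possible because there is only 1 group. The small number of member genes and the unknown read depth limit every share.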
